A study of Mus musculus with 18 samples.

Results

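Double mutant mouse tongue libraries that carry basal keratin RNA were compared with wild type mouse esophagus libraries by mRNA sequencing. The 6 libraries described are E20/p53 replicates 1 to 3 and WT replicates 1 to 3, of 18 in the series. The E20/p53 libraries are labelled as tongue squamous epithelium with K14-Cre and 2 alleles kept silent by a loxP-flanked stop until Cre removes it, PIK3CA H1047R and a heterozygous p53 R172H. K14-Cre is driven by the keratin 14 promoter, which is active in basal cells of stratified epithelia. The WT libraries are labelled as squamous epithelium of wild type esophagus, with neither allele and no Cre named. Tissue and alleles therefore differ together and cannot be told apart. The series title speaks of tumours begun with 4NQO, an oral carcinogen, and the labels do not say which libraries came from exposed mice or from a tumour. Age and sex are not given. No label says that replicates come from separate animals or cultures, and no genotype is given in the labels beyond these alleles.

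The E20/p53 group holds 6 libraries, and replicates 1 to 3 were chosen by their measured values: they form a set of their own, apart from replicates 4 to 6, with keratin RNA and with more likeness to WT than any other set. Every gene of the comparison took part in that choice, so the values below are a description and no p-value is given. The set is called keratin-high E20/p53. Levels are counted reads over the authors' scaled library total, per 1000000 (CPM), differences are keratin-high E20/p53 minus WT on the deposited log2 scale, and errors are the SD or SE over 3 libraries per set. A gene is called apart when the 3 values of each set do not overlap and the means differ by at least 1 log2 unit, which is 2-fold.

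A stratified squamous epithelium renews itself from basal cells, which express the keratin pair Krt5 and Krt14 under the transcription factor Trp63 and are fixed to the basement membrane by hemidesmosomes. Cells that leave the basal layer switch to other keratins and to cornified envelope proteins. Krt8 and Krt18 form the keratin pair of simple epithelia. The H1047R form of PIK3CA is constitutively active; PI3-kinase signals through AKT and keeps FOXO factors out of the nucleus. The R172H form of p53 has an altered DNA-binding domain.

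Counted reads were 14592044, 15963416 and 15940941 in keratin-high E20/p53, against 14710482, 16420136 and 15343864 in WT. Pearson's r across the 26143 genes was 0.958 to 0.959 for the 9 pairs of an keratin-high E20/p53 and a WT library. It was 0.942 to 0.943 for E20/p53 4 to 6 against WT, and the pairs of the E20 and p53 sets with WT lay lower, down to 0.935. Within a set r was 0.994 to 0.995 in keratin-high E20/p53 and 0.995 in WT. Genes are not independent replicates, and this likeness is what chose the libraries. The authors' scaled total was 1.11 to 1.12 times the sum of reads in keratin-high E20/p53 and 1.06 to 1.1 times in WT. Replicates were close to each other: their variance was 3.86 times that of counting error in keratin-high E20/p53 and 2.51 times in WT, over genes with a mean of at least 20 reads.

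The promoters of 6 genes that the results turn on are shown, as the 250 bases before the start that RefSeq gives on GRCm38.p6, written 5′ to 3′ on the gene's strand. Krt5 (chr15:101712906-101713155, minus strand) encodes a basal keratin. Capitals mark the p53-family half-site, a motif of 10 letters that p53 and p63 can bind, searched on both strands.
Krt5: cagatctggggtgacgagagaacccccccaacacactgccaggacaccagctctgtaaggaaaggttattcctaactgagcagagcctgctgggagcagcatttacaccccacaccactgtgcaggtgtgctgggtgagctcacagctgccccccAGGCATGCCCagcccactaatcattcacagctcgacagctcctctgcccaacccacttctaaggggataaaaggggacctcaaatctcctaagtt
The window held 1 match, at position -95 from the start. That of Krt14, whose RefSeq start lies inside the gene's span in GENCODE M21, held 0 and is not printed. The windows given below for Ccnb1, Idi1, Tap1 and Psmb9 also reach into the span of their gene in GENCODE M21. The motif stood in 2 of the 7 promoters found for the stratified keratin list, and 7.18% of the 27025 promoters of this length held the motif.

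Top2a (chr11:99024190-99024439, minus strand) and Ccnb1 (chr13:100786487-100786736, minus strand) stand for the mitosis genes. Capitals mark CCAAT, the box bound by NF-Y, and TTTGAA, the cell cycle homology element, on either strand.
Top2a: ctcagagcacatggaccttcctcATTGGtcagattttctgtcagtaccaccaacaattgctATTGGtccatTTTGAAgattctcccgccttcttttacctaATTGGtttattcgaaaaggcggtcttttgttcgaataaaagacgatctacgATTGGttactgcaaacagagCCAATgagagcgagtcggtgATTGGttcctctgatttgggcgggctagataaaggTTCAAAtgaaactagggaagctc
Ccnb1: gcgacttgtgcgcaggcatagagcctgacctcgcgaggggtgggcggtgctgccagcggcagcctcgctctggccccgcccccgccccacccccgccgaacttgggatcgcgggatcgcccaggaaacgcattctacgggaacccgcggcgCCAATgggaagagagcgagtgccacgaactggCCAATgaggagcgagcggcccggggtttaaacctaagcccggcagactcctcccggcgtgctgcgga
The Top2a window held 6 CCAAT and 2 TTTGAA matches, and the Ccnb1 window 2 and 0. CCAAT stood in 15 of the 17 promoters found for the mitosis list and in 34.5% of all promoters; TTTGAA stood in 7 and in 16.3%.

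Hmgcs1 (chr13:119690101-119690350, plus strand) and Idi1 (chr13:8885356-8885605, plus strand) encode enzymes of cholesterol synthesis. Capitals mark CCAAT and CACCCCAC, the core of the sterol regulatory element, on either strand.
Hmgcs1: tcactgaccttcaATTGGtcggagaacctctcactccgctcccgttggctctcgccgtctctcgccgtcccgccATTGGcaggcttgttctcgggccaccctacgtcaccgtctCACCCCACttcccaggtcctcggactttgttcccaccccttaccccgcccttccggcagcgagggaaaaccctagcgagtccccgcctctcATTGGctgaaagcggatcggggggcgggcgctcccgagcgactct
Idi1: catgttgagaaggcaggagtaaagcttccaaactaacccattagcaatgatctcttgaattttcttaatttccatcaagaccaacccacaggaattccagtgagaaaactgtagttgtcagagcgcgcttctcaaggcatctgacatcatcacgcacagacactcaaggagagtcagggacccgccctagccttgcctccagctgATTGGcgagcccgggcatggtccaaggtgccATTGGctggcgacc
CACCCCAC stood in 1 of the 13 promoters found for the cholesterol list, that of Hmgcs1, and in 2.51% of all promoters. CCAAT stood in 12 of the 13. Tap1 (chr17:34187306-34187555, plus strand) shares its upstream stretch with Psmb9, which starts in the opposite direction (chr17:34187331-34187580, minus strand). Capitals mark CCAAT and the GC box GGGCGG on either strand.
Tap1: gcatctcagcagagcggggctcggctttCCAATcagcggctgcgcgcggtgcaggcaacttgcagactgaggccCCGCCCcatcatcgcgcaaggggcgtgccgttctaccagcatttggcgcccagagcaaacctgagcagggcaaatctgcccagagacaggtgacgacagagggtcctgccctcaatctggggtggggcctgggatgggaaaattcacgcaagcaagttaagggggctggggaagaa
The GC box stood in 32.9% of all promoters. A match is a description of the letters and not a bound site.

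Reads of the 2 engineered genes were read beside the labels. Trp53 (chromosome 11, 69580359 to 69591873, mm10), the gene of the p53 allele, was higher in keratin-high E20/p53. Trp53 had 189.8, 168 and 179 CPM in keratin-high E20/p53, against 24.9, 26.7 and 25.9 CPM in WT. The sets did not overlap, and the log2 difference was 2.79 (SE 0.06). Mean levels in the 4 other sets of 3 were 81.7 to 312 CPM, so WT held the lowest Trp53 level of the 6 sets. Those 4 include the E20 sets, which are labelled with the Pik3ca mutation and no p53 mutation. A Trp53 level above WT was thus not limited to libraries labelled with a p53 allele. Pik3ca had 77.1, 80.8 and 77.1 CPM in keratin-high E20/p53, against 122, 128 and 128 CPM in WT. Pik3ca (chromosome 3, 32397671 to 32468486), the mouse gene of the catalytic subunit, had a log2 difference of -0.68 (SE 0.03), which does not reach 2-fold. Reads per gene do not show the codon changes, and whether reads of the introduced PIK3CA allele are counted under Pik3ca is not given in the sources used here.

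Of 13343 genes that averaged at least 1 CPM over the 6 libraries, 1658 were apart and higher in keratin-high E20/p53 (12.4%) and 1436 were apart and lower (10.8%). Without the 2-fold minimum, 10987 genes (82.3%) did not overlap between the sets, and the median log2 difference of all genes counted was 0.04. The difference was at least 16-fold for 271 higher and 169 lower genes. Just inside the 2-fold rule lay Rundc1 (1.001) and Zfp950 (-1.00002), and just outside it Seh1l (0.9998) and Ssbp3 (-0.999). A gene present in only 1 set passes the minimum level through that set, and counts over lists below are read as descriptions beside these shares.

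**Figure D1:**
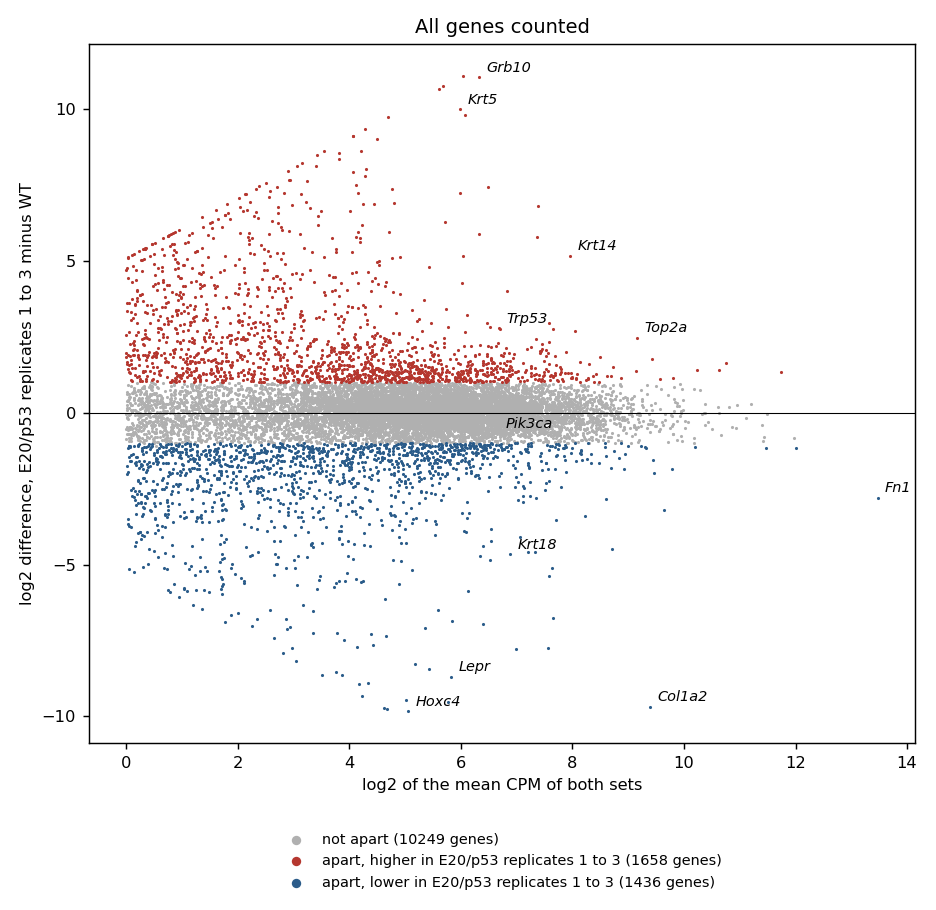
Each point is 1 of the 13343 genes counted, with the log2 of its mean CPM over both sets on the x axis and the log2 difference of keratin-high E20/p53 minus WT on the y axis. The 1658 higher (red) and 1436 lower (blue) genes reach from the level of Grb10 and Krt5 at the top to Hoxc4 and Col1a2 at the bottom, and Fn1 lies at the right end.

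The leading higher genes, taken by log2 difference among genes with at least 5 CPM in the higher set, included Grb10, the Y-linked Eif2s3y, Ddx3y, Uty and Kdm5d, Krt5, Pdpn, Defb3, Ntrk2, Psmb8 and Trabd2b. Grb10 had 157, 165 and 160.1 CPM in keratin-high E20/p53, against 0.0621, 0 and 0 CPM in WT. Grb10, an imprinted adaptor that restrains insulin and IGF receptors, had 1 read in WT and was 8062-fold higher (95% interval 1447 to 318476); such intervals cover counting error only. Pdpn had 129, 144 and 131 CPM in keratin-high E20/p53, against 0.186, 0.0575 and 0.0601 CPM in WT. Podoplanin, a membrane glycoprotein of basal keratinocytes, fibroblasts and lymphatic vessels, was higher with a log2 difference of 9.80 (SE 0.36). Defb3 had 44, 62.8 and 49.3 CPM in keratin-high E20/p53, against 0 CPM in every WT library. This gene of an epithelial antimicrobial peptide, a beta-defensin, was at least 874-fold higher, a lower bound taken against 3 reads over the WT set, and its mean in each of the 4 other sets was 0 CPM. Ntrk2 had 31.2, 35 and 34.2 CPM in keratin-high E20/p53, against 0 CPM in every WT library. Ntrk2 encodes TrkB, the receptor of the neurotrophin BDNF, and was at least 561-fold higher. Trabd2b, which encodes a metalloprotease that inactivates Wnt proteins, was 929-fold higher (95% interval 257 to 7677) at 37 ± 2.82 CPM in keratin-high E20/p53 and 0.0407 ± 0.0353 CPM in WT. In all of these the 2 sets lay far apart, with WT at or near 0 reads.

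The leading lower genes included Hoxc4, Hoxc5, Hoxc6, Hoxb3, Cck, Padi4, Col1a2, Ankrd1, Zfhx4, Rps4l and Lepr. Col1a2 had 1.6, 1.63 and 1.52 CPM in keratin-high E20/p53, against 1308, 1419.8 and 1305 CPM in WT. Col1a2 encodes the second chain of type I collagen, and its log2 difference was -9.68 (SE 0.05); the 4 other sets averaged 3323 to 8634 CPM, so the low level lay in keratin-high E20/p53. Lepr had 0.247, 0.336 and 0.112 CPM in keratin-high E20/p53, against 104, 124 and 113 CPM in WT. The leptin receptor gene was lower with a log2 difference of -8.70 (SE 0.37). Ankrd1 had 0.185, 0 and 0.169 CPM in keratin-high E20/p53, against 112, 106 and 107 CPM in WT. Ankrd1, a muscle ankyrin repeat gene that responds to YAP, was lower with a log2 difference of -9.54 (SE 0.69). Both sets were well apart in these 3 genes. Cck had 0 CPM in every keratin-high E20/p53 library, against 54.2, 43.1 and 55.1 CPM in WT. Cholecystokinin, a peptide hormone, was at least 875-fold lower, and Padi4, a peptidylarginine deiminase, was at least 852-fold lower at 0 ± 0 CPM in keratin-high E20/p53 and 49.2 ± 3.29 CPM in WT. Zfhx4, a zinc finger homeobox gene, was 1679-fold lower (95% interval 464 to 13872). Rps4l, which GENCODE M21 types as a transcribed processed pseudogene and whose reads may be shared with close copies, was 1864-fold lower (95% interval 334 to 73659.5).

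Keratins split between the sets: those of basal and activated stratified epithelium were higher in keratin-high E20/p53, and those of simple epithelium were lower. Krt5 (chromosome 15, 101707070 to 101712898), Krt14 (chromosome 11, 100203162 to 100207548) and Krt18 (chromosome 15, 102028180 to 102032027) were 3 of the genes by which the libraries were recognised. Krt5 had 124, 119 and 136 CPM in keratin-high E20/p53, against 0, 0.115 and 0.12 CPM in WT. Krt5 was higher with a log2 difference of 9.99 (SE 0.51), from 6563 reads in keratin-high E20/p53 and 4 in WT. Krt14 had 495, 476 and 478 CPM in keratin-high E20/p53, against 14, 12.5 and 13.6 CPM in WT. Its partner Krt14 was higher with a log2 difference of 5.17 (SE 0.05). Krt17 had 342, 317 and 329 CPM in keratin-high E20/p53, against 3.04, 2.7 and 2.95 CPM in WT. Krt17, a keratin of activated and wounded epidermis, was higher with a log2 difference of 6.80 (SE 0.06). The other wound keratins followed: Krt6a averaged 37.7 ± 1.53 CPM in keratin-high E20/p53 and 0.304 ± 0.221 CPM in WT. Krt16 averaged 13 ± 0.0695 CPM in keratin-high E20/p53 and 0.121 ± 0.0615 CPM in WT. Krt6b averaged 6.53 ± 0.265 CPM in keratin-high E20/p53 and 0.0392 ± 0.034 CPM in WT (SD, n = 3 each). Of 15 stratified keratins listed, 11 were counted, of which 7 were apart and higher and 2 were apart and lower. Their median log2 difference was 5.17. Over all genes counted the shares were 12.4% and 10.8% and the median 0.04. The list includes Krt5 and Krt14, by which the libraries were recognised. Krt5, Krt6a, Krt6b and Krt16 passed the minimum level through keratin-high E20/p53 alone, and with no minimum level the median was 1.15. The count and median are thus a description. Krt13, the keratin of the suprabasal layers of oral and esophageal epithelium, averaged 0.427 ± 0.179 CPM in keratin-high E20/p53 and 2.05 ± 0.545 CPM in WT, and Krt4, its partner, averaged 0.0561 CPM in keratin-high E20/p53 with 0 reads in WT.

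Krt18 had 8.76, 9.19 and 8.82 CPM in keratin-high E20/p53, against 237, 224 and 222 CPM in WT. Krt18 was lower with a log2 difference of -4.66 (SE 0.04), and the 4 other sets averaged 0 to 0.0227 CPM, so both lay above them. Krt8 had 0.555, 0.056 and 0.225 CPM in keratin-high E20/p53, against 42, 40.6 and 41.9 CPM in WT. Its partner Krt8 was lower with a log2 difference of -7.27 (SE 0.71). Krt19 had 0.0617, 0 and 0.112 CPM in keratin-high E20/p53, against 7.2, 6.27 and 6.01 CPM in WT. Krt7 had 0 reads in keratin-high E20/p53 and 167 in WT and was at least 57.6-fold lower. All 4 of the 6 simple keratins listed that were counted were apart and lower, with a median of -5.90. Krt7, Krt8 and Krt19 passed the minimum level through WT alone, and Krt18 is a gene by which the libraries were recognised. Krt20 and Krt23 were below the minimum level.

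**Figure D2:**
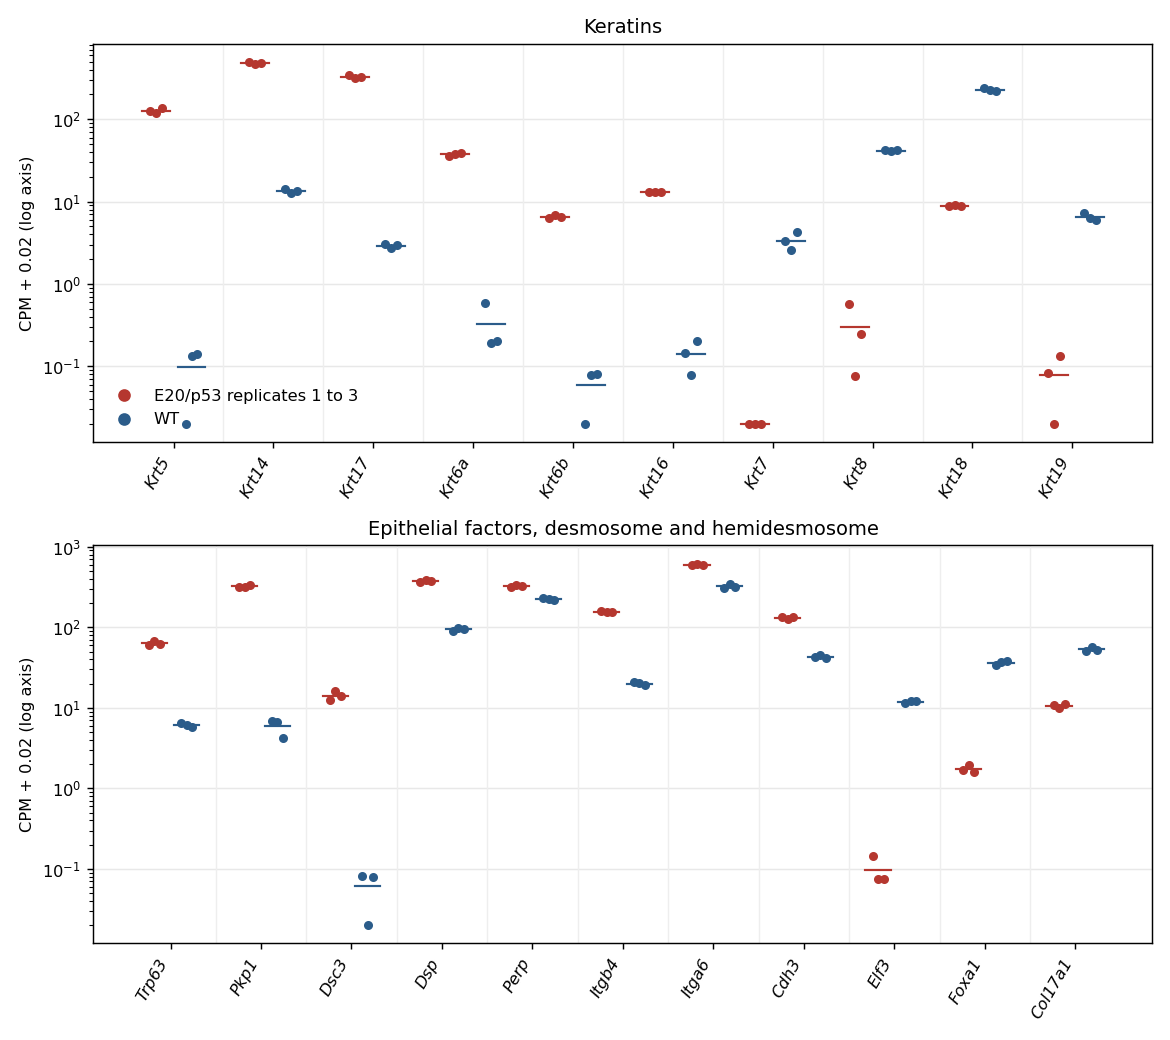
Levels of 10 keratins (upper panel) and 11 epithelial genes (lower panel) in each library, as CPM plus 0.02 on a log axis, with keratin-high E20/p53 in red left of WT in blue and a line at each mean. Krt5, Krt14, Krt17, Krt6a, Krt6b and Krt16 lie higher in keratin-high E20/p53, and Krt7, Krt8, Krt18 and Krt19 lie higher in WT.

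The labels of both sets name squamous epithelium, and defining markers of epithelia were read beside them. Krt5, Krt14 and Krt18 are among these markers and are genes by which the libraries were recognised. The basal and simple epithelial sums below are therefore a description and no independent evidence of cell type. The 5 basal keratinocyte markers (Krt5, Krt14, Trp63, Itgb4 and Col17a1) summed to 827 to 851 CPM in keratin-high E20/p53 and 91.2 to 95.6 CPM in WT. Of these, 4 were apart and higher, and Col17a1, the source of most of the WT sum, was apart and lower. The 5 simple epithelial markers (Krt8, Krt18, Krt19, Epcam and Cdh1) summed to 11.8 to 12.3 CPM in keratin-high E20/p53 and 271 to 288 CPM in WT. Those of differentiated squamous epithelium (Krt4, Krt13, Ivl, Krt1 and Krt10) summed to 10.1 to 11.1 CPM in keratin-high E20/p53 and 10.9 to 12.2 CPM in WT, with most of these reads from Krt10 and Krt4 and Krt1 at 0 reads in WT. E-cadherin (Cdh1), the cadherin of epithelia, averaged 1.96 ± 0.446 CPM in keratin-high E20/p53 and 1.54 ± 0.13 CPM in WT. Epcam, an epithelial surface protein, averaged 0.793 ± 0.103 CPM in keratin-high E20/p53 and 0.141 ± 0.0927 CPM in WT. WT thus held next to no Krt5 RNA and no Krt4 read, and the epithelial Cdh1 and Epcam were low in both sets.

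Basal cells hold to the basement membrane by hemidesmosomes, in which the integrin pair Itga6 and Itgb4 binds laminin-332. Of 9 such genes counted, 1 was apart in each direction (11.1%), near the 12.4% and 10.8% of all genes counted. Itgb4 had 160.5, 154 and 153 CPM in keratin-high E20/p53, against 20.9, 20.07 and 18.9 CPM in WT. Itgb4 was higher with a log2 difference of 2.96 (SE 0.05). Col17a1 had 10.8, 9.98 and 11.2 CPM in keratin-high E20/p53, against 51.2, 56.7 and 52.7 CPM in WT. Col17a1, a transmembrane collagen of the same junction, ran the other way and was lower with a log2 difference of -2.32 (SE 0.07). Itga6 averaged 602 ± 15.4 CPM in keratin-high E20/p53 and 323 ± 19.2 CPM in WT. Did not reach 2-fold, and the linker Plec averaged 453 ± 34.9 CPM in keratin-high E20/p53 and 409 ± 4.06 CPM in WT.

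Desmosomes, which join neighbouring keratinocytes, had 8 of 13 listed genes counted, of which 3 were apart and higher and 1 was apart and lower. Pkp1 had 321, 320.4 and 335 CPM in keratin-high E20/p53, against 6.83, 6.73 and 4.21 CPM in WT. Plakophilin 1, the plaque protein of suprabasal desmosomes, was higher with a log2 difference of 5.80 (SE 0.23). Dsp had 368, 382 and 377 CPM in keratin-high E20/p53, against 90.8, 97.5 and 96.4 CPM in WT. Desmoplakin, the link to keratin filaments, was higher with a log2 difference of 1.98 (SE 0.04). Dsc3, a desmosomal cadherin, had 738 reads in keratin-high E20/p53 and 2 in WT. Pkp2 was lower, at 26.4 ± 1.8 CPM in keratin-high E20/p53 and 53.7 ± 1.16 CPM in WT, and its difference of -1.02 lies near the 2-fold limit. Perp, a desmosomal p53 and p63 target, averaged 328 ± 9.84 CPM in keratin-high E20/p53 and 226 ± 6.97 CPM in WT, within 2-fold. Among cadherins, P-cadherin (Cdh3) of basal cells averaged 132 ± 3.98 CPM in keratin-high E20/p53 and 43.1 ± 2.03 CPM in WT. N-cadherin (Cdh2) averaged 146 ± 1.26 CPM in keratin-high E20/p53 and 45.7 ± 2.09 CPM in WT. The mesenchymal Cdh11 averaged 43.5 ± 1.51 CPM in keratin-high E20/p53 and 2.31 ± 0.583 CPM in WT. All 3 were apart and higher, with log2 differences of 1.61, 1.67 and 4.23. The catenins Ctnnb1 and Ctnna1 differed by -0.29 and -0.05 on the log2 scale. Of the 6 tight junction genes counted, Marveld3 was apart and higher (5.25 CPM in keratin-high E20/p53, 1.29 CPM in WT), and Cgn (1.82 CPM in keratin-high E20/p53, 10.7 CPM in WT) and Cldn1 (6 CPM in keratin-high E20/p53, 12.9 CPM in WT) were apart and lower. Spint1, an inhibitor of membrane serine proteases, averaged 12.5 ± 0.97 CPM in keratin-high E20/p53 and 0.499 ± 0.0407 CPM in WT. The membrane glycoprotein Cdcp1 averaged 24.4 ± 0.525 CPM in keratin-high E20/p53 and 9.73 ± 0.52 CPM in WT. Both were apart and higher. Spint2, a relative of Spint1, averaged 56.1 ± 2.05 CPM in keratin-high E20/p53 and 84.1 ± 1.17 CPM in WT. The surface glycoprotein Cd24a averaged 174 ± 7.47 CPM in keratin-high E20/p53 and 199 ± 1.12 CPM in WT. These were within 2-fold.

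Epithelial transcription factors differed in direction: of 11 counted, 3 were apart and higher and 3 were apart and lower. Trp63 had 60.6, 67.9 and 62.3 CPM in keratin-high E20/p53, against 6.39, 6.09 and 5.77 CPM in WT. Trp63 (chromosome 16, 25683763 to 25892102), the p53 relative that maintains basal cells, was higher with a log2 difference of 3.37 (SE 0.07). Esrp2, an epithelial splicing factor, averaged 3.91 ± 0.182 CPM in keratin-high E20/p53 and 0.524 ± 0.366 CPM in WT. Foxa1 had 1.67, 1.96 and 1.57 CPM in keratin-high E20/p53, against 34.3, 37.3 and 38 CPM in WT. Foxa1, a factor of endoderm and simple epithelia, was lower with a log2 difference of -4.36 (SE 0.10), and Elf3 was lower with a log2 difference of -6.49 (SE 0.24) at 0.0785 ± 0.0388 CPM in keratin-high E20/p53 and 11.9 ± 0.41 CPM in WT. Tfap2a and Klf5 were among the factors within 2-fold, at 86.9 ± 0.554 CPM in keratin-high E20/p53 and 68.4 ± 4.96 CPM in WT for Tfap2a and 31.9 ± 1.96 CPM in keratin-high E20/p53 and 60.1 ± 3.08 CPM in WT for Klf5. Of 18 genes of the cornified envelope and squamous differentiation, 7 were counted, of which 1 was apart and higher and 5 were apart and lower. Sprr1b had 0.0617, 0.112 and 0.281 CPM in keratin-high E20/p53, against 8.19, 6.73 and 7.76 CPM in WT. Sprr1b, a small proline-rich envelope protein, was lower with a log2 difference of -5.31 (SE 0.44). Sprr1a averaged 3.07 ± 0.518 CPM in keratin-high E20/p53 and 9.89 ± 1.28 CPM in WT. The galectin Lgals7 averaged 1.6 ± 0.173 CPM in keratin-high E20/p53 and 16.1 ± 1.74 CPM in WT. The calcium-binding S100a14 averaged 0.439 ± 0.126 CPM in keratin-high E20/p53 and 3.06 ± 0.517 CPM in WT. The exception was Sfn (14-3-3 sigma), at 10.7 ± 1.2 CPM in keratin-high E20/p53 and 2.79 ± 0.296 CPM in WT. Sbsn averaged 5.82 ± 0.583 CPM in keratin-high E20/p53 and 10 ± 0.528 CPM in WT, within 2-fold.

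Matrix genes differed in both directions. Fn1 had 2862, 2884 and 2780.4 CPM in keratin-high E20/p53, against 19012, 21657 and 19078 CPM in WT. Fibronectin was lower with a log2 difference of -2.81 (SE 0.06). Thrombospondin 2 averaged 9.07 ± 0.712 CPM in keratin-high E20/p53 and 375 ± 5.57 CPM in WT. Thrombospondin 1 averaged 2546 ± 20.9 CPM in keratin-high E20/p53 and 5716 ± 224 CPM in WT. The YAP target Ccn2 averaged 11.7 ± 1.2 CPM in keratin-high E20/p53 and 281 ± 8.67 CPM in WT. These were apart and lower. Postn had 149, 174 and 149.9 CPM in keratin-high E20/p53, against 2.05, 3.51 and 2.47 CPM in WT. Periostin was higher with a log2 difference of 5.88 (SE 0.23), and Sparc averaged 628 ± 10.6 CPM in keratin-high E20/p53 and 223 ± 7.24 CPM in WT. Of 12 matricellular and elastic fibre genes counted, 2 were apart and higher and 6 were apart and lower. Of 18 collagens counted, 5 were apart and higher and 4 were apart and lower. Beside Col1a2, Col1a1 (26.2 CPM in keratin-high E20/p53, 94.4 CPM in WT) and the anchoring fibril collagen Col7a1 (12 CPM in keratin-high E20/p53, 88.5 CPM in WT) were lower, and Col6a3 (53.07 CPM in keratin-high E20/p53, 1.55 CPM in WT), Col6a2 (95.6 CPM in keratin-high E20/p53, 13.6 CPM in WT) and Col5a3 (25 CPM in keratin-high E20/p53, 1.1 CPM in WT) were higher. The basement membrane chain Col4a1 averaged 348 ± 17.1 CPM in keratin-high E20/p53 and 368 ± 3.22 CPM in WT. Nid2 had 54.4, 55.6 and 51.6 CPM in keratin-high E20/p53, against 0.124, 0.46 and 0.301 CPM in WT. Nid2 and Nid1, the nidogens that link laminin and collagen IV, were higher by 7.37 and 5.13 on the log2 scale, and Lama4 by 5.95. In contrast, perlecan (Hspg2) averaged 184 ± 9.33 CPM in keratin-high E20/p53 and 646 ± 31.8 CPM in WT. Lama5 averaged 86.5 ± 3.78 CPM in keratin-high E20/p53 and 259 ± 6.69 CPM in WT. Agrn averaged 241 ± 6.18 CPM in keratin-high E20/p53 and 461 ± 8.44 CPM in WT. The gelatinases Mmp2 and Mmp9 were higher, at 25 ± 1.61 CPM in keratin-high E20/p53 and 2.85 ± 0.201 CPM in WT for Mmp2 and 3.26 ± 1.04 CPM in keratin-high E20/p53 and 0.119 ± 0.0593 CPM in WT for Mmp9, and Mmp11 was lower, at 12.9 ± 1 CPM in keratin-high E20/p53 and 39.4 ± 1.47 CPM in WT. The inhibitors Timp3 and Timp2 differed by -0.99 and -0.43 on the log2 scale, within 2-fold.

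Fibroblast markers were mixed, with 8 of 13 counted, of which 4 were apart and higher and 1 was apart and lower. The shares of all genes counted were 12.4% and 10.8%. The higher members include Pdpn, described above and also a gene of basal keratinocytes. Pdpn passed the minimum level through keratin-high E20/p53 alone and Mfap5 through WT alone, so their direction follows from that filter. Pdgfra had 47.6, 52.5 and 52 CPM in keratin-high E20/p53, against 8.07, 8.62 and 8.42 CPM in WT. Pdgfra, a growth factor receptor of fibroblasts, Cd34 and decorin (Dcn) were higher by 2.59, 1.69 and 1.64 on the log2 scale. Mfap5, an elastic microfibril gene, had 0 reads in keratin-high E20/p53 and 110 in WT. Vimentin averaged 2034 ± 33.8 CPM in keratin-high E20/p53 and 3523 ± 115 CPM in WT. S100a4 averaged 658 ± 9.88 CPM in keratin-high E20/p53 and 1224 ± 11.6 CPM in WT, lower but within 2-fold. The 8 transcription factors of epithelial to mesenchymal transition had 1 apart in each direction (12.5%), near the shares of all genes. Prrx1 was higher, at 146 ± 7.64 CPM in keratin-high E20/p53 and 46.9 ± 1.88 CPM in WT. Twist2 was lower, at 5.85 ± 0.457 CPM in keratin-high E20/p53 and 29.2 ± 2.65 CPM in WT. Zeb1 averaged 90.7 ± 3.07 CPM in keratin-high E20/p53 and 102 ± 1.93 CPM in WT. Contractile genes of smooth muscle and myofibroblasts were lower: of 9 counted, 0 were apart and higher and 7 were apart and lower. Acta2 had 399, 404 and 382 CPM in keratin-high E20/p53, against 869, 932 and 869 CPM in WT. Smooth muscle actin was lower with a log2 difference of -1.17 (SE 0.04). Enteric actin (Actg2), calponin (Cnn1), a tropomyosin (Tpm2), a myosin light chain (Myl9) and caldesmon (Cald1) were lower, with log2 differences of -3.47, -2.70, -1.34, -1.29 and -1.12. Another tropomyosin, Tpm1, averaged 1148 ± 6.47 CPM in keratin-high E20/p53 and 868 ± 13.6 CPM in WT, within 2-fold. Fewer cells of a type and less RNA per cell cannot be told apart in such bulk samples.

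Homeobox genes of body position differed between the sets. Hox genes are expressed along the body axis behind the jaw, and the oral skeleton and tongue mesenchyme form from tissue in front of that domain. Of 39 Hox genes listed, 12 were counted, and all of these 12 were apart and lower, with a median log2 difference of -7.59. All of them passed the minimum level through WT alone, so their shared direction follows from that filter. With no minimum level the median was -0.91. Hoxc4 had 0.0617, 0 and 0 CPM in keratin-high E20/p53, against 67.1, 68.2 and 64.7 CPM in WT. Hoxc4 was 3458-fold lower (95% interval 620.2 to 136616). Hoxc5 had 0 CPM in every keratin-high E20/p53 library, against 35.8, 37 and 39 CPM in WT. Hoxc5 was at least 645-fold lower. Hoxc6 had 0.123, 0 and 0 CPM in keratin-high E20/p53, against 39.2, 40.9 and 40.1 CPM in WT. Hoxc8 was at least 287-fold lower at 0 ± 0 CPM in keratin-high E20/p53 and 16.6 ± 0.923 CPM in WT. Each keratin-high E20/p53 library held at most 0.729 CPM of any Hox gene. Hoxb3 had 0, 0.056 and 0 CPM in keratin-high E20/p53, against 25.1, 28.7 and 27.8 CPM in WT. Hoxb3 was 1412-fold lower (95% interval 253 to 55806). The clusters differed in the other sets: Hoxc4 averaged 0 to 0.257 CPM in the 4 other tongue sets and Hoxb3 7.92 to 25.4 CPM. Among the 6 sets Hoxc4 was thus high in WT alone, and Hoxb3 was lowest in keratin-high E20/p53. The other Hox genes listed averaged under 1 CPM over the 6 libraries, and those of the HoxD cluster had 0 reads in both sets.

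Of 39 patterning factors of the jaw and foregut, 22 were counted, of which 9 were apart and higher and 4 were apart and lower. The shares of all genes counted were 12.4% and 10.8%. Nkx2-3, Alx4, Tbx1, Tbx15, Tbx20 and Lhx6 passed the minimum level through keratin-high E20/p53 alone. Gata4, Msx2 and Six2 passed it through WT alone. The direction of these genes follows from that filter, and the counts are a description. Nkx2-3 had 8.27, 8.74 and 9.33 CPM in keratin-high E20/p53, against 0 CPM in every WT library. Nkx2-3, a homeobox factor of pharynx, tongue and gut, was at least 147-fold higher. Tbx1 had 11.5, 11.3 and 12.1 CPM in keratin-high E20/p53, against 0.248, 0.172 and 0.421 CPM in WT. Tbx1, a T-box factor of the pharynx, was higher with a log2 difference of 5.17 (SE 0.31), and Tbx15 averaged 7.99 ± 0.246 CPM in keratin-high E20/p53 and 0.639 ± 0.228 CPM in WT. Tbx20 averaged 5.64 ± 0.76 CPM in keratin-high E20/p53 and 0.275 ± 0.171 CPM in WT. Alx4 had 234 reads in keratin-high E20/p53 and 1 read in WT. Lhx6, a LIM homeobox factor of jaw and forebrain, averaged 3.43 ± 0.14 CPM in keratin-high E20/p53 and 0.32 ± 0.0959 CPM in WT. Gata4 had 0.0617, 0.056 and 0.0562 CPM in keratin-high E20/p53, against 7.01, 5.92 and 6.37 CPM in WT. Gata4, a factor of endoderm and heart, was lower, with 3 reads in keratin-high E20/p53 and 322 in WT. The homeobox genes Msx2 and Six2 were lower too. Msx2 averaged 0.671 ± 0.101 CPM in keratin-high E20/p53 and 5.9 ± 0.634 CPM in WT. Six2 averaged 0.189 ± 0.114 CPM in keratin-high E20/p53 and 2.93 ± 0.334 CPM in WT. The zinc finger gene Osr1 averaged 2.88 ± 0.306 CPM in keratin-high E20/p53 and 12 ± 1.2 CPM in WT. These were apart and lower. Pitx1 had 178, 165 and 176 CPM in keratin-high E20/p53, against 161, 145 and 177 CPM in WT. Pitx1, a factor of hindlimb and jaw, overlapped between the sets.

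**Figure D3:**
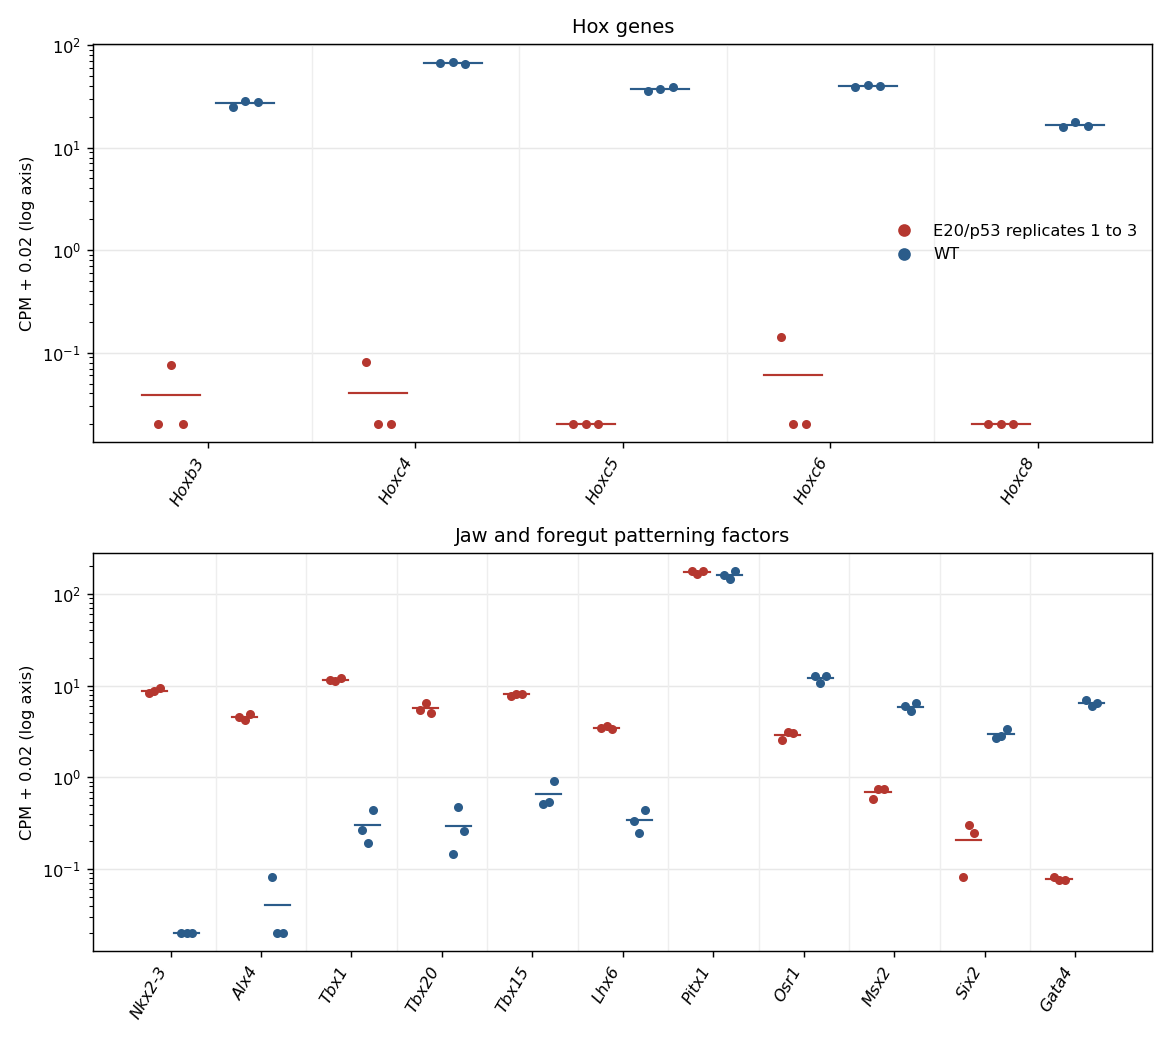
Levels of the 5 Hox genes (upper panel) and 11 jaw and foregut factors (lower panel) named in the text in each library, as CPM plus 0.02 on a log axis, keratin-high E20/p53 in red left of WT in blue. The Hox genes lie near the bottom of the axis in keratin-high E20/p53, and Nkx2-3 lies at 0 reads in WT.

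The p53 pathway was described from its regulators to its targets. Among 10 regulators and family members counted, Trp53, Trp63 and the kinase Chek2 (42 CPM in keratin-high E20/p53, 20.7 CPM in WT) were apart and higher, and Cdkn2a (142 CPM in keratin-high E20/p53, 288 CPM in WT), whose Arf product protects p53 from Mdm2, was apart and lower; the differences of Chek2 and Cdkn2a, 1.02 and -1.02, lie near the 2-fold limit. Mdm2, the ubiquitin ligase of p53 and also its target, averaged 57.4 ± 3.09 CPM in keratin-high E20/p53 and 74.8 ± 0.651 CPM in WT. Of 23 p53 targets counted, 1 was apart and higher and 5 were apart and lower, with a median of -0.10. Cdkn1a had 7.09, 6.39 and 7.25 CPM in keratin-high E20/p53, against 5.4, 4.77 and 5.05 CPM in WT. The CDK inhibitor Cdkn1a (p21) did not reach 2-fold, and the 4 other sets averaged 61.4 to 567 CPM, above both. Trp53inp1 had 34.6, 42.3 and 37.6 CPM in keratin-high E20/p53, against 108, 117 and 102 CPM in WT. Trp53inp1, a p53-induced stress protein, was lower with a log2 difference of -1.52 (SE 0.10). Btg2, which restrains proliferation, averaged 8.53 ± 1.65 CPM in keratin-high E20/p53 and 22 ± 1.54 CPM in WT. The death receptor Tnfrsf10b averaged 10.7 ± 0.773 CPM in keratin-high E20/p53 and 26.6 ± 1.65 CPM in WT. The related receptor Eda2r averaged 1.08 ± 0.0819 CPM in keratin-high E20/p53 and 3.31 ± 0.746 CPM in WT. All 3 were apart. Tigar, a fructose bisphosphatase, was the higher one, at 50.2 ± 0.748 CPM in keratin-high E20/p53 and 16.5 ± 0.259 CPM in WT. Plk2 averaged 120.2 ± 4.56 CPM in keratin-high E20/p53 and 162 ± 2.45 CPM in WT, within 2-fold.

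Of 13 PI3-kinase subunits and lipid phosphatases counted, 2 were apart and higher and 2 were apart and lower. This is 15.4% in each direction, near the 12.4% and 10.8% of all genes counted. Pik3r3 had 75.7, 76.3 and 75.8 CPM in keratin-high E20/p53, against 21.2, 25 and 22.4 CPM in WT. The regulatory subunit Pik3r3 was higher with a log2 difference of 1.73 (SE 0.07). Pik3ip1, which inhibits the kinase, averaged 22 ± 0.947 CPM in keratin-high E20/p53 and 62.1 ± 1.05 CPM in WT. Pik3r5, a regulatory subunit of the gamma kinase, averaged 25.6 ± 2.44 CPM in keratin-high E20/p53 and 79.2 ± 2.26 CPM in WT. The delta catalytic subunit Pik3cd averaged 3.81 ± 0.852 CPM in keratin-high E20/p53 and 1.58 ± 0.511 CPM in WT. These were the other members apart. The main regulatory subunit Pik3r1 averaged 183 ± 5.08 CPM in keratin-high E20/p53 and 220.5 ± 8.15 CPM in WT. The phosphatase Inppl1 averaged 249.9 ± 17.8 CPM in keratin-high E20/p53 and 232 ± 2.35 CPM in WT. Downstream, 16 AKT and mTOR genes were counted, of which 1 was apart and higher and 2 were apart and lower (6.25% and 12.5%). Deptor, an mTOR inhibitor, averaged 7.57 ± 0.335 CPM in keratin-high E20/p53 and 33.2 ± 3.84 CPM in WT. The kinase Sgk1 averaged 114 ± 2.59 CPM in keratin-high E20/p53 and 270.2 ± 3.57 CPM in WT. The mTOR subunit Mlst8 averaged 30.5 ± 1.29 CPM in keratin-high E20/p53 and 14.7 ± 0.627 CPM in WT. Akt1 averaged 402 ± 21.5 CPM in keratin-high E20/p53 and 305 ± 2.72 CPM in WT. A further list joined FOXO factors, genes that they activate and genes of insulin feedback. Of 14 counted, 2 were apart and higher and 6 were apart and lower, with a median of -0.86. The list mixes these kinds of genes, so its count does not measure FOXO targets alone. Foxo6 passed the minimum level through keratin-high E20/p53 alone and Pdk4 through WT alone. Pdk4 had 0.247, 0.224 and 0.112 CPM in keratin-high E20/p53, against 89.5, 85.1 and 82.7 CPM in WT. Pdk4, the pyruvate dehydrogenase kinase, was lower with a log2 difference of -8.46 (SE 0.27), and the 4 other sets averaged 37.4 to 108 CPM. Irs1 had 31.7, 29.9 and 30.6 CPM in keratin-high E20/p53, against 129, 129 and 124 CPM in WT. The insulin receptor substrates Irs1 and Irs2 were lower, with log2 differences of -2.05 and -2.19, and so was the ubiquitin ligase Fbxo32, with -2.00. Igf1r averaged 97.8 ± 0.417 CPM in keratin-high E20/p53 and 208 ± 8.53 CPM in WT. Foxo6 was higher at 9.48 ± 0.788 CPM in keratin-high E20/p53 and 0.618 ± 0.119 CPM in WT. Ccng2, a FOXO target, averaged 123 ± 4.81 CPM in keratin-high E20/p53 and 149 ± 4.9 CPM in WT, within 2-fold.

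Most genes of cell division were higher in keratin-high E20/p53. Of 20 mitosis genes counted, 19 were apart and higher and 0 were apart and lower, with a median log2 difference of 1.57. Top2a had 979, 965 and 974 CPM in keratin-high E20/p53, against 177, 181 and 169 CPM in WT. Topoisomerase II alpha, which untangles sister chromosomes, was higher with a log2 difference of 2.47 (SE 0.03). Mki67 had 570.2, 563 and 559 CPM in keratin-high E20/p53, against 152, 166 and 155 CPM in WT. The proliferation marker Mki67 was higher with a log2 difference of 1.84 (SE 0.04). Aurkb had 124, 118 and 117 CPM in keratin-high E20/p53, against 25.3, 25.1 and 27.6 CPM in WT. Aurora kinase B, its partner Birc5, the kinesin Kif20a and the checkpoint kinase Ttk were higher by 2.20, 1.88, 2.04 and 1.91 on the log2 scale. Bub1b was the member that did not reach 2-fold, with a log2 difference of 0.86. Top2a averaged 494 to 691 CPM in the 4 other sets, so WT held the lowest level of the 6 sets. Of 20 DNA replication genes, 15 were apart and higher and 0 were apart and lower, with a median of 1.14. Rrm2 had 288, 268 and 269 CPM in keratin-high E20/p53, against 48.5, 55 and 49.6 CPM in WT. Rrm2, the regulated subunit of ribonucleotide reductase, was higher with a log2 difference of 2.43 (SE 0.07). The helicase subunit Mcm5 averaged 168 ± 13.9 CPM in keratin-high E20/p53 and 34.4 ± 2.22 CPM in WT. The origin licensing factor Cdc6 averaged 34.2 ± 0.693 CPM in keratin-high E20/p53 and 9.14 ± 0.612 CPM in WT. Cdc45 averaged 52.4 ± 2.4 CPM in keratin-high E20/p53 and 17.2 ± 0.95 CPM in WT. Gins1, with Cdc45 a part of the replicative helicase, was higher by 1.54 on the log2 scale. Rrm1, the other reductase subunit, averaged 346 ± 9.06 CPM in keratin-high E20/p53 and 157 ± 4.03 CPM in WT. Of 16 genes of the G1 phase, 4 were apart and higher and 2 were apart and lower. Ccnd2 had 1056, 1093 and 1052 CPM in keratin-high E20/p53, against 305, 326 and 318 CPM in WT. Cyclin D2 was higher with a log2 difference of 1.76 (SE 0.03), whereas cyclin D1 averaged 679 ± 20.31 CPM in keratin-high E20/p53 and 893 ± 11.6 CPM in WT. Ccne2 averaged 17.5 ± 0.182 CPM in keratin-high E20/p53 and 4.98 ± 0.372 CPM in WT. Rbl1 averaged 68.5 ± 2.96 CPM in keratin-high E20/p53 and 29.2 ± 0.524 CPM in WT. Of the CDK inhibitors, Cdkn2c was higher (25.9 CPM in keratin-high E20/p53, 7.64 CPM in WT) and Cdkn2b lower (45.8 CPM in keratin-high E20/p53, 98.4 CPM in WT).

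Several genes that load peptides on MHC class I had few or no reads in WT. The immunoproteasome cuts proteins into peptides, Tap1 and Tap2 carry them into the endoplasmic reticulum, and class I heavy chains present them with B2m. Of 12 counted, 8 were apart and higher and 0 were apart and lower, with a median of 2.31. The shares of all genes counted were 12.4% and 10.8%. Psmb8, Psmb9 and Tap1 passed the minimum level through keratin-high E20/p53 alone, so their direction follows from that filter. The count and median are thus a description. Psmb8 had 24.7, 22 and 23.3 CPM in keratin-high E20/p53, against 0 CPM in every WT library. This catalytic subunit was at least 389-fold higher. Psmb9 had 7.22, 7.29 and 7.08 CPM in keratin-high E20/p53, against 0.124, 0 and 0 CPM in WT. Tap1 had 19, 16.8 and 15.6 CPM in keratin-high E20/p53, against 0.372, 0.172 and 0.18 CPM in WT. Psmb9 and Tap1, which start from the shared stretch printed above, had 2 and 12 reads in WT. Tap2 had 44.2, 41.7 and 45.5 CPM in keratin-high E20/p53, against 1.55, 1.26 and 1.2 CPM in WT. The 4 other sets averaged 32.8 to 45.7 CPM of Psmb8 and 56.1 to 66.5 CPM of Tap2, so the low level belonged to WT. The transactivator Nlrc5 averaged 6.34 ± 0.951 CPM in keratin-high E20/p53 and 1.03 ± 0.207 CPM in WT. Of the heavy chains, H2-K1 averaged 288 ± 5.71 CPM in keratin-high E20/p53 and 60.5 ± 1.2 CPM in WT. H2-D1 averaged 271 ± 6.12 CPM in keratin-high E20/p53 and 118 ± 6.63 CPM in WT; class I genes are close copies of each other and differ between strains, so reads may be split among them. B2m had 445, 473 and 452 CPM in keratin-high E20/p53, against 449.9, 466 and 458 CPM in WT. B2m overlapped between the sets. Of 22 interferon response genes counted, 7 were apart and higher and 1 was apart and lower. Parp14 had 23, 24.4 and 23.8 CPM in keratin-high E20/p53, against 0.869, 1.15 and 0.902 CPM in WT. Parp14, an interferon-induced ADP-ribosyltransferase, was higher with a log2 difference of 4.53 (SE 0.12), and the RNA sensor Ifih1 averaged 11.1 ± 0.268 CPM in keratin-high E20/p53 and 0.635 ± 0.174 CPM in WT. Its relative Dhx58 averaged 11.3 ± 1.08 CPM in keratin-high E20/p53 and 2.94 ± 0.357 CPM in WT. Isg15, a ubiquitin-like protein, averaged 6.58 ± 0.622 CPM in keratin-high E20/p53 and 1.74 ± 0.373 CPM in WT, while the 4 other sets averaged 17.4 to 306 CPM, above both. Eif2ak2 and Stat2 differed by 0.56 and 0.42 on the log2 scale, within 2-fold.

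Chemokines and cytokines had 14 counted, of which 5 were apart and higher and 2 were apart and lower. Il6 had 9.01, 10.2 and 9.55 CPM in keratin-high E20/p53, against 0.807, 0.345 and 0.421 CPM in WT. Interleukin 6 was higher with a log2 difference of 4.12 (SE 0.34). The alarmin Il33 averaged 19.7 ± 0.654 CPM in keratin-high E20/p53 and 2.17 ± 0.279 CPM in WT. Lif averaged 46.3 ± 3.27 CPM in keratin-high E20/p53 and 17.3 ± 0.871 CPM in WT. Cxcl12, a stromal chemokine, averaged 53.12 ± 3.48 CPM in keratin-high E20/p53 and 216 ± 6.23 CPM in WT. The epithelial alarmin Il1a averaged 0.943 ± 0.157 CPM in keratin-high E20/p53 and 4.56 ± 0.735 CPM in WT. These were apart and lower. The neutrophil chemokines Cxcl5 and Cxcl1 differed by 0.24 and 0.90 on the log2 scale, within 2-fold. Of 11 caspases and gasdermins, 1 was apart and higher and 2 were apart and lower (9.09% and 18.2%). The shares of all genes counted were 12.4% and 10.8%. The lower ones were Casp4 (5.8 CPM in keratin-high E20/p53, 23.7 CPM in WT) and Casp12 (21.7 CPM in keratin-high E20/p53, 51.9 CPM in WT).

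Most genes of cholesterol synthesis were higher in keratin-high E20/p53. SREBP factors drive the enzymes of cholesterol and fatty acid synthesis. Of 21 cholesterol genes counted, 14 were apart and higher and 1 was apart and lower, with a median of 1.15. Idi1 had 227, 276 and 248 CPM in keratin-high E20/p53, against 52.3, 59.9 and 54.8 CPM in WT. Idi1, the isopentenyl isomerase, was higher with a log2 difference of 2.17 (SE 0.10). Hmgcs1 had 435, 517 and 466 CPM in keratin-high E20/p53, against 146, 164 and 154 CPM in WT. Hmgcs1, the HMG-CoA synthase, was higher with a log2 difference of 1.61 (SE 0.09). Mvk averaged 54.3 ± 1.66 CPM in keratin-high E20/p53 and 14.8 ± 1.1 CPM in WT. The sterol carrier Stard4 averaged 93.6 ± 7 CPM in keratin-high E20/p53 and 30.3 ± 2.77 CPM in WT. Srebf2 itself averaged 326 ± 1.34 CPM in keratin-high E20/p53 and 273 ± 3.07 CPM in WT. Of 8 fatty acid synthesis genes, 4 were apart and higher and 0 were apart and lower. The elongase Elovl6 averaged 154 ± 14.1 CPM in keratin-high E20/p53 and 55.4 ± 2.56 CPM in WT. The synthase Fasn averaged 461 ± 8.48 CPM in keratin-high E20/p53 and 199 ± 9.26 CPM in WT. The carboxylase Acaca and the desaturase Scd2 were higher by 1.16 and 1.10 on the log2 scale, and Scd1 differed by 0.72. The 4 other sets averaged 40.4 to 296 CPM of Idi1 and 175 to 339 CPM of Fasn.

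**Figure D4:**
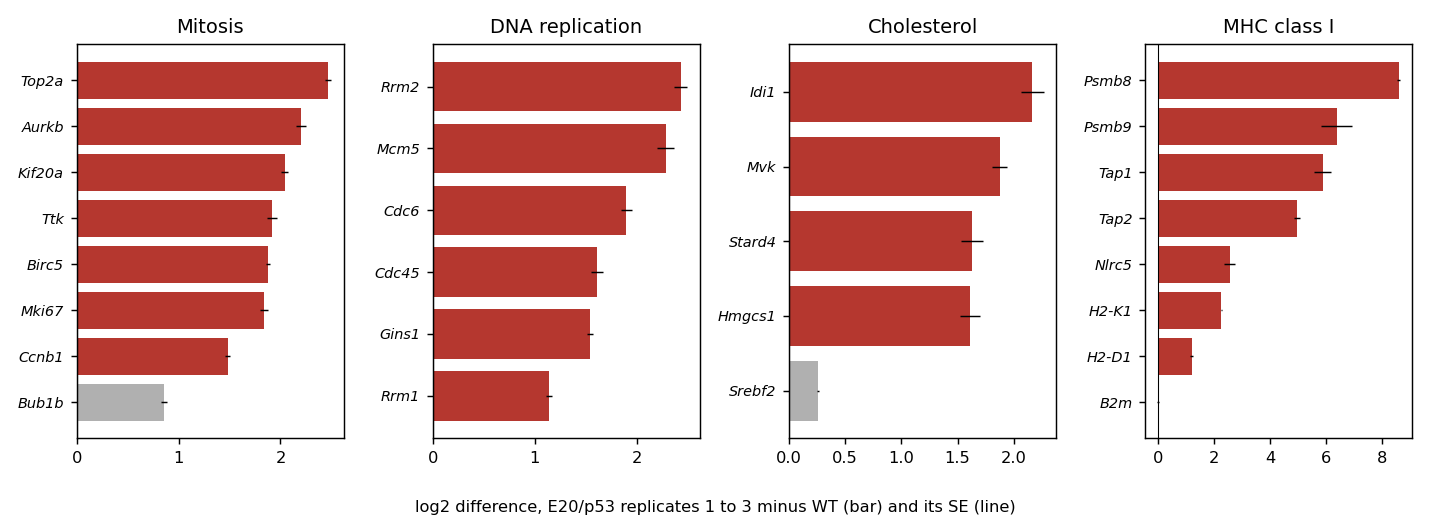
Log2 difference of keratin-high E20/p53 minus WT for the genes of 4 lists named in the text, with its SE over 3 libraries per set. Red bars are apart and higher and grey bars are not apart; the widest bar is Psmb8 at 8.61, and B2m lies near 0.

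Of 20 glycolysis and hypoxia genes, 8 were apart and higher and 1 was apart and lower, with a median of 0.73. Ldha had 2321, 2225 and 2328 CPM in keratin-high E20/p53, against 902, 843 and 857 CPM in WT. Lactate dehydrogenase A was higher with a log2 difference of 1.40 (SE 0.04). Phosphofructokinase Pfkp averaged 271 ± 8.46 CPM in keratin-high E20/p53 and 69.7 ± 3.2 CPM in WT. Pyruvate kinase Pkm averaged 4872 ± 241 CPM in keratin-high E20/p53 and 1935 ± 91 CPM in WT. The glucose transporter Slc2a1 averaged 187 ± 4.41 CPM in keratin-high E20/p53 and 72.2 ± 2.03 CPM in WT. The lactate exporter Slc16a3 averaged 50.9 ± 2.25 CPM in keratin-high E20/p53 and 20.7 ± 1.33 CPM in WT. None of the 18 respiratory chain genes was apart, and their median was 0.18. Of the ATP synthase subunits, Atp5b averaged 1452 ± 29.2 CPM in keratin-high E20/p53 and 1204 ± 17.8 CPM in WT. Atp5a1 averaged 1003 ± 17.8 CPM in keratin-high E20/p53 and 666 ± 7.8 CPM in WT. Of 18 cytosolic ribosomal protein genes, Rps2 (353 CPM in keratin-high E20/p53, 157 CPM in WT) was apart and higher and Rpl10 (31.8 CPM in keratin-high E20/p53, 65.2 CPM in WT) apart and lower, with a median of -0.62; their many pseudogenes may share reads. Among 12 NRF2 targets of the antioxidant response, Nqo1 (167 CPM in keratin-high E20/p53, 56.4 CPM in WT), Gclc (272 CPM in keratin-high E20/p53, 105 CPM in WT) and Gsta4 (413 CPM in keratin-high E20/p53, 195 CPM in WT) were higher and Gstm1 (88.6 CPM in keratin-high E20/p53, 321 CPM in WT) lower. Of 16 genes of the unfolded protein response, Sdf2l1 (19.1 CPM in keratin-high E20/p53, 6.02 CPM in WT) was apart, and the chaperone Hspa5 averaged 798 ± 16.2 CPM in keratin-high E20/p53 and 828 ± 12.9 CPM in WT.

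Ereg, Areg and Tgfa, ligands of the EGF family that keratinocytes make and sense, were higher, and their receptor was lower. Ereg had 87.5, 86 and 85.7 CPM in keratin-high E20/p53, against 17.1, 17.7 and 18.5 CPM in WT. Epiregulin was higher with a log2 difference of 2.28 (SE 0.03). Amphiregulin (Areg) averaged 17.5 ± 0.684 CPM in keratin-high E20/p53 and 3.24 ± 0.224 CPM in WT. Tgfa averaged 18.4 ± 0.414 CPM in keratin-high E20/p53 and 6.18 ± 0.734 CPM in WT. Egfr had 67.6, 70.6 and 74.8 CPM in keratin-high E20/p53, against 151, 157 and 156 CPM in WT. The receptor Egfr was lower with a log2 difference of -1.12 (SE 0.05). Those 4 were the members apart among 10 counted. The 11 ERK feedback genes had 1 apart each way (9.09%), near the 12.4% and 10.8% of all genes counted. Spry1, an inhibitor of the pathway, was higher, at 41.8 ± 1.72 CPM in keratin-high E20/p53 and 11.4 ± 1.44 CPM in WT. The phosphatase Dusp5 was lower, at 1.56 ± 0.0462 CPM in keratin-high E20/p53 and 9.35 ± 1.2 CPM in WT. Dusp6 differed by 0.39 on the log2 scale. Among 11 early response genes, Fos, Egr1 and Ier2 were higher by 1.23, 1.13 and 1.03 on the log2 scale, and Myc differed by -0.46. Hedgehog genes had 3 members apart and higher of 10 counted, beside 12.4% of all genes counted. Gli2 had 12, 8.85 and 9.05 CPM in keratin-high E20/p53, against 0 CPM in every WT library. Gli2 and Gli1, transcription factors of the pathway, had 0 reads and 1 read in WT, and Gli2 was at least 166-fold higher. Both passed the minimum level through keratin-high E20/p53 alone, so their direction follows from that filter. Hhip, which binds the ligands, averaged 261 ± 3.22 CPM in keratin-high E20/p53 and 124 ± 5.1 CPM in WT. Gas1 averaged 446 ± 15.4 CPM in keratin-high E20/p53 and 450.2 ± 25.9 CPM in WT.

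Notch genes had 12 counted, of which 4 were apart and higher and 1 was apart and lower. Notch1 had 45.8, 43 and 40.5 CPM in keratin-high E20/p53, against 2.98, 3.97 and 4.39 CPM in WT. Notch1, the receptor that drives keratinocyte differentiation, was higher with a log2 difference of 3.51 (SE 0.17). Lfng, which adds sugars to Notch receptors, averaged 31.4 ± 1.92 CPM in keratin-high E20/p53 and 10.3 ± 0.43 CPM in WT. The ligand Dll1 averaged 5.91 ± 0.303 CPM in keratin-high E20/p53 and 13.8 ± 0.518 CPM in WT. Jag2, a ligand of basal cells, averaged 89.5 ± 3.33 CPM in keratin-high E20/p53 and 88.4 ± 5.03 CPM in WT and was not apart. Of 15 Wnt genes, 6 were apart and higher and 6 were apart and lower. The ligand Wnt5a averaged 157 ± 6.92 CPM in keratin-high E20/p53 and 70.5 ± 2.29 CPM in WT. The transcription factor Lef1 averaged 3.48 ± 0.247 CPM in keratin-high E20/p53 and 0.42 ± 0.0692 CPM in WT. Wnt7a averaged 1.41 ± 0.105 CPM in keratin-high E20/p53 and 10.6 ± 0.791 CPM in WT. Wnt16 averaged 0.711 ± 0.213 CPM in keratin-high E20/p53 and 4.45 ± 0.534 CPM in WT. The antagonist Dkk3 averaged 35.8 ± 2.25 CPM in keratin-high E20/p53 and 242 ± 8.2 CPM in WT. Those 3 were apart and lower. Among 14 BMP genes, Id4, an inhibitor of helix-loop-helix factors, and Bmp2 were apart and higher. Id4 had 334, 377 and 340.3 CPM in keratin-high E20/p53, against 48.4, 51.9 and 54.9 CPM in WT. Id4 averaged 0.273 to 2.47 CPM in the 4 other sets. Bmp4 averaged 24.3 ± 1.84 CPM in keratin-high E20/p53 and 70.6 ± 1.89 CPM in WT. Its antagonist Grem1 averaged 74.8 ± 2.78 CPM in keratin-high E20/p53 and 275 ± 3.87 CPM in WT. Of 13 TGF-beta genes, Tgfb2 was higher (55.2 ± 3.13 CPM in keratin-high E20/p53 and 19.3 ± 1.87 CPM in WT). The latent TGF-beta binding protein Ltbp2 averaged 7.58 ± 1.09 CPM in keratin-high E20/p53 and 161 ± 15.8 CPM in WT. The co-receptor Tgfbr3 averaged 56.8 ± 2.83 CPM in keratin-high E20/p53 and 189 ± 10.1 CPM in WT. These were apart and lower.

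Growth genes of the IGF axis had 3 members apart in each direction of 9 counted. Igfbp2 had 55.3, 55.6 and 54.6 CPM in keratin-high E20/p53, against 0.372, 0.46 and 0.361 CPM in WT. The binding proteins Igfbp2, Igfbp5 and Igfbp6 were higher by 6.92, 6.48 and 4.80 on the log2 scale, and Igfbp7 was lower, with a log2 difference of -1.87. Igfbp4 averaged 1327 ± 3.33 CPM in keratin-high E20/p53 and 1323 ± 13.1 CPM in WT, against 35.5 to 639 CPM in the 4 other sets. Among 8 imprinted genes, Peg3 averaged 9.57 ± 0.677 CPM in keratin-high E20/p53 and 0.235 ± 0.195 CPM in WT. Mest averaged 7.15 ± 0.7 CPM in keratin-high E20/p53 and 86.1 ± 4.45 CPM in WT. H19 had 3.7, 3.47 and 4.55 CPM in keratin-high E20/p53, against 5.52, 2.82 and 3.97 CPM in WT. H19, the imprinted non-coding RNA beside Igf2, overlapped between the sets. Of 12 further integrins, 3 were apart and higher and 3 were apart and lower. Itga9 averaged 13.1 ± 0.43 CPM in keratin-high E20/p53 and 0.0808 ± 0.0917 CPM in WT. The collagen receptor subunit Itga2 averaged 2.68 ± 0.552 CPM in keratin-high E20/p53 and 8.11 ± 0.613 CPM in WT.

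**Figure D5:**
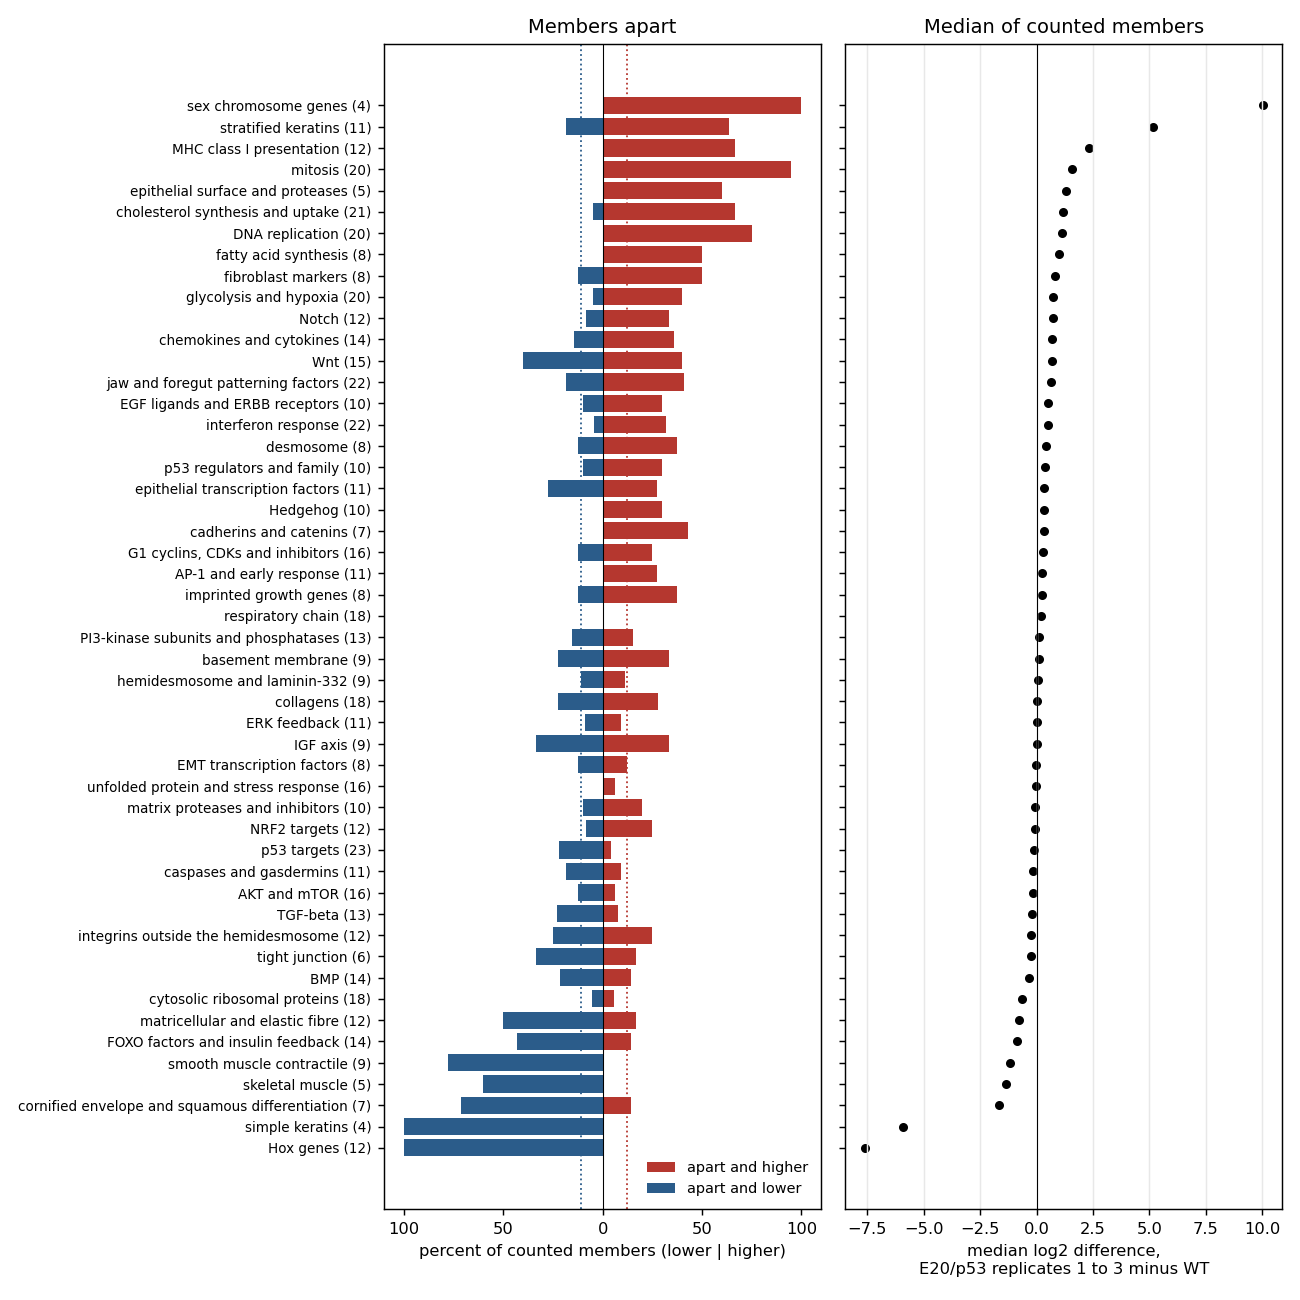
For each list with at least 4 counted genes (number in parentheses), the left panel gives the percent of counted members apart and lower (blue, left of 0) or higher (red, right of 0), with dotted lines at the 10.8% and 12.4% of all genes, and the right panel the median log2 difference of keratin-high E20/p53 minus WT. Sex chromosome genes and stratified keratins have the highest medians and Hox genes and simple keratins the lowest.

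Markers of other cell types were read for both sets. The 5 leukocyte markers (Ptprc, Cd3e, Itgam and Adgre1 among them) summed to 0 to 0.225 CPM in keratin-high E20/p53 and 0.0601 to 0.23 CPM in WT, with Cd3e and Adgre1 at 0 reads in both sets. Of the full leukocyte list of 7, 1 gene was counted, Cd68, a lysosomal protein abundant in macrophages. Cd68 had 19.1, 22.5 and 21.1 CPM in keratin-high E20/p53, against 15.4, 16 and 17.2 CPM in WT. Cd68 did not overlap between the sets and was within 2-fold, with a log2 difference of 0.37 (SE 0.08), and the 4 other sets averaged 1.51 to 3.34 CPM. The 3 endothelial markers summed to 1.85 to 2.34 CPM in keratin-high E20/p53 and 2.29 to 2.93 CPM in WT; Cdh5 had 0 reads in keratin-high E20/p53 and 1 in WT. Pecam1, the endothelial adhesion protein, averaged 0.268 ± 0.111 CPM in keratin-high E20/p53 and 2.59 ± 0.275 CPM in WT. Kdr, a VEGF receptor of endothelium, ran the other way. Kdr had 2.16, 1.91 and 1.46 CPM in keratin-high E20/p53, against 0.0621, 0.0575 and 0 CPM in WT. It was 45.9-fold higher (95% interval 12.4 to 385) and averaged under 1 CPM over the 6 libraries, so it was not counted. The 7 fibroblast markers (Col1a1, Col1a2, Col3a1, Pdgfra, Dcn, Lum and Thy1) summed to 111 to 115 CPM in keratin-high E20/p53 and 1445 to 1567 CPM in WT, with most of these reads from Col1a2 in WT, and to 8463 to 21691 CPM in the 12 other libraries. The 5 smooth muscle markers summed to 409 to 429.9 CPM in keratin-high E20/p53 and 924 to 995 CPM in WT, with most of these reads from Acta2 and Des at 0.0749 CPM in keratin-high E20/p53 and 0.258 CPM in WT. The 5 skeletal muscle markers summed to 3.71 to 5.21 CPM in keratin-high E20/p53 and 6.84 to 7.4 CPM in WT, with Myod1 and Myog at 0 reads in both. The Schwann cell markers summed to 1.17 to 1.69 CPM in keratin-high E20/p53 and 3.01 to 3.74 CPM in WT with Sox10 at 0 reads in both, the melanocyte markers to 3.81 to 4.5 CPM in keratin-high E20/p53 and 1.26 to 1.68 CPM in WT with Tyr and Dct at 0 reads in both, the neuronal markers to 13.6 to 15.8 CPM in keratin-high E20/p53 and 16 to 18.6 CPM in WT, and the adipocyte markers to 0.0617 to 0.168 CPM in keratin-high E20/p53 and 0.0575 to 0.124 CPM in WT. Single genes of these lists were nevertheless apart: Pax3, a factor of muscle precursors and neural crest, averaged 0.153 ± 0.026 CPM in keratin-high E20/p53 and 42.6 ± 1.05 CPM in WT. The adipocyte factor Pparg averaged 7.31 ± 1.06 CPM in keratin-high E20/p53 and 49.1 ± 2.88 CPM in WT. The synaptic gene Rims2 averaged 35.6 ± 0.944 CPM in keratin-high E20/p53 and 0.677 ± 0.112 CPM in WT. The neuronal tubulin Tubb3 averaged 5.02 ± 1.52 CPM in keratin-high E20/p53 and 0.816 ± 0.0994 CPM in WT. The part of other cell types in the keratin, matrix and contractile differences was not tested.

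The 4 Y-linked genes listed were apart and higher, and they passed the minimum level through keratin-high E20/p53 alone. Eif2s3y had 98.2, 109 and 102 CPM in keratin-high E20/p53, against 0 CPM in every WT library. Ddx3y had 94.9, 99.8 and 98.8 CPM in keratin-high E20/p53, against 0 CPM in every WT library. Both had 0 reads in WT and were at least 1721-fold and 1636-fold higher, and Kdm5d and Uty also had 0 reads in WT. Xist had 0.247, 0.56 and 0.618 CPM in keratin-high E20/p53, against 0.621, 0.69 and 0.722 CPM in WT. Xist, the RNA that silences an X chromosome in female cells, was under 1 CPM in every library of both sets. The part of Y-linked content in the other differences was not tested.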

How the data were processed

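RNA of 18 mouse libraries was sequenced after TruSeq stranded mRNA preparation. Per the submitters' processing notes, bcl2fastq 1.8.4, Trimmomatic and featureCounts were used with the build mm10; the sources used here do not name the aligner, the annotation or the scaling. The deposited log2 values are those of (reads + 1) divided by a library total that the authors scaled. Whole reads came back for 100% of the values to within 0.001, and CPM is those reads over the scaled total, per 1000000.

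The table held 26143 genes, and genes averaging at least 1 CPM over the 6 libraries were counted. Libraries, members and the 55 gene lists were chosen with earlier results of these data known, so no test was made. The genes named are Trp53, Pik3ca, Krt5, Krt14 and Krt18, the 12 leading genes in each direction with at least 5 CPM in the higher set, up to 5 apart and the 2 highest genes of each list, and markers of other cell types. A few genes that this rule covers are not reported here. The leading genes leave out antigen receptor segments and models whose names mark them as RIKEN, predicted or pseudogenes; Rps4l passed this rule by name. Further genes were named after their values were seen, namely Bub1b, Ccnb1, Cdkn1a, H19, H2-K1, Kdr, Lhx6, Mdm2, Msx2, Osr1, Six2, Tbx15, Tbx20, Xist, those of the closing observations and those just inside or outside the 2-fold rule. A gene with 0 reads in a set is given a lower bound against 3 reads over the set, and one with 1 to 3 reads a ratio with an exact 95% interval; both cover counting error only, since PCR copies are counted as reads. Alternatives were other scalings, another pseudocount, other minimum levels, a 4-fold minimum, the other E20/p53 libraries and leaving out each library. Positions are from GENCODE M21 and promoters from RefSeq (GRCm38.p6; the first entry of a symbol). Python 3.11.15, pandas 2.3.3 and scipy 1.17.1 were used, and the counting rule was tested on simulated data.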

Additional observations from a re-analysis of the deposited data

How the results depend on the processing

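The 1658 higher and 1436 lower genes became 1788 and 1388 with the sum of reads as the scaling, 1567 and 1536 with median-of-ratios factors, 1463 and 1236 with log2 of CPM plus 1, and 1580 to 1716 and 1391 to 1494 with 1 library left out. With no minimum level they were 2464 and 2397, with a mean of at least 5 CPM 1102 and 951, and with a minimum of 2 log2 units 679 and 591; the first 2 settings count more or fewer genes, and the third asks for a larger difference of the same 13343 genes. All 6 E20/p53 libraries gave 1405 and 1335, and replicates 4 to 6 alone 2134 and 2075. The median over all genes stayed within -0.01 and 0.09 under the 3 other scalings. No named gene that was apart changed direction under the scalings, the other pseudocount or a left-out library. Of 223 named genes apart, 215 to 223 stayed apart under each of these; those lost under at least 1 included Cdkn2a, Chek2, Cldn1, Ier2, Ifi44, Notch3, Pik3cd, Pkp2, Rpl10.

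Median log2 differences of lists moved with the pseudocount and the genes counted. That of the stratified keratins, 5.17, was 2.86 with log2 of CPM plus 1 and 1.15 with no minimum level. That of the Hox genes, -7.59, was -3.88 and -0.91 in the same settings, and that of the simple keratins, -5.90, was -3.67 and -5.25. Some medians changed sign, among them that of the epithelial transcription factors, 0.35, which was -0.64 with the sum of reads as the scaling. The endothelial median was -3.07 from 1 gene and became 0.66 with the sum of reads as the scaling, where Kdr also passed the minimum level, and ran from -3.33 to 0.73 with 1 library left out. The Schwann cell and melanocyte median, 0.06 from 2 genes that moved in opposite directions, was -0.048 with no minimum level and -0.0648 to 0.14 with 1 library left out. The fibroblast median, 0.80, was -0.0297 with no minimum level and 0.75 to 1.68 with 1 library left out, the higher values each without a WT library. Mfap5, the only fibroblast marker apart and lower, passed the minimum level through WT alone, so leaving out a WT library lowers its mean. The part of Mfap5 in these higher values was not tested. No paired analysis was possible because no label ties replicates across the sets and no test was made. Sets of 3 libraries limit every SD, and genes under 1 CPM rest on few reads.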

Other observations

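Genes with less than a 2-fold difference between the sets were also read, since likeness to WT is what chose keratin-high E20/p53. This is a description with no test. Genes under this limit can still differ between the sets, as Itga6 and Bnc1 below. Of 26143 genes, 45 differed less than 2-fold between keratin-high E20/p53 and WT and lay higher in both than in the 12 other libraries. In these 45, at 5 CPM or more in both sets, each of the 6 libraries lay at least 4-fold above each of the 12 others. The examples given were picked after their values were seen. Sox2, a factor of foregut and oral epithelial progenitors, averaged 53.7 CPM in keratin-high E20/p53, 0 to 1.86 CPM in the 4 other tongue sets and 37 CPM in WT. Pax9, a factor of pharyngeal pouches and oral epithelium, averaged 51.7 CPM in keratin-high E20/p53, 0 to 1.18 CPM in the 4 other tongue sets and 33.6 CPM in WT. Pitx1 averaged 173 CPM in keratin-high E20/p53, 0 to 8.82 CPM in the 4 other tongue sets and 161 CPM in WT. The desmosome gene Perp averaged 328 CPM in keratin-high E20/p53, 0.293 to 32.7 CPM in the 4 other tongue sets and 226 CPM in WT. Itga6 averaged 602 CPM in keratin-high E20/p53, 15.6 to 32.8 CPM in the 4 other tongue sets and 323 CPM in WT. Tfap2a averaged 86.9 CPM in keratin-high E20/p53, 0.347 to 5.77 CPM in the 4 other tongue sets and 68.4 CPM in WT. The keratinocyte zinc finger gene Bnc1 averaged 57.9 CPM in keratin-high E20/p53, 0.0628 to 4.32 CPM in the 4 other tongue sets and 30.4 CPM in WT. The retinoic acid binding protein gene Crabp2 averaged 121 CPM in keratin-high E20/p53, 2.5 to 6.23 CPM in the 4 other tongue sets and 101 CPM in WT. The cornified envelope gene Ppl averaged 34.3 CPM in keratin-high E20/p53, 0.203 to 2.97 CPM in the 4 other tongue sets and 22.9 CPM in WT. Casp1 averaged 40.3 CPM in keratin-high E20/p53, 0.0434 to 6.49 CPM in the 4 other tongue sets and 55.8 CPM in WT. WT held these genes with next to no Krt5 RNA.

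In the other direction, 81 of 26143 genes met the same 2-fold limit and lay lower in both sets than in the 12 others. In these 81, each of the 6 libraries lay at least 4-fold below each of the 12 others, which averaged at least 5 CPM. The imprinted pair H19 and Igf2 belonged here: H19 averaged 3.91 CPM in keratin-high E20/p53, 607 to 9993 CPM in the 4 other tongue sets and 4.1 CPM in WT. Igf2 averaged 1.84 CPM in keratin-high E20/p53, 72.6 to 2879 CPM in the 4 other tongue sets and 3.47 CPM in WT. Col3a1 averaged 26.8 CPM in keratin-high E20/p53, 2154 to 5916 CPM in the 4 other tongue sets and 35.9 CPM in WT. The pericyte and fibroblast receptor Pdgfrb averaged 41.4 CPM in keratin-high E20/p53, 378 to 464 CPM in the 4 other tongue sets and 42.2 CPM in WT. Serpinf1 averaged 12.1 CPM in keratin-high E20/p53, 818 to 1356 CPM in the 4 other tongue sets and 7.05 CPM in WT. The urokinase gene Plau averaged 22.3 CPM in keratin-high E20/p53, 124 to 307 CPM in the 4 other tongue sets and 19.2 CPM in WT. The myogenic factor Myf5 had 0 reads in both sets and averaged 46.1 to 86.8 CPM in the 4 others. The p53 target Cdkn1a was a member as well, at 6.91 CPM in keratin-high E20/p53, 61.4 to 567 CPM in the 4 other tongue sets and 5.07 CPM in WT. These genes were chosen after their values were seen.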
